A study of Homo sapiens with 6 samples.

Results

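Of 8468 poly(A) 3′-seq peaks at the ends of protein-coding genes in IMR-32 neuroblastoma cells, 857 (10.1%, 95% Wilson interval 9.50 to 10.8) had no polyadenylation hexamer where one would be looked for, and these peaks lay in 813 of 7980 genes. They were chosen by position and sequence alone. The summit had to lie from 200 bp upstream to 600 bp downstream of the end of a gene's canonical transcript, with genes of 1 strand only at that place, and none of 12 hexamers could be present on the gene strand in the 100 bp that end at the 3′ edge. The 3′ edge is the downstream border of the peak on the gene strand. Histone genes were left out because their main transcripts end without a poly(A) tail, which removed 30 peaks, 11 of them without a hexamer. The other 7611 peaks had at least 1 hexamer and served as the comparison set.

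IMR-32 is an established human neuroblastoma cell line, and the study asked where its transcripts end when the transcriptional kinases CDK12 and CDK13 are inhibited by THZ531, a covalent inhibitor. The 6 libraries came in pairs: 2 from DMSO (solvent) cultures, 2 from cultures with 400 nM THZ531 after 2 h, and 2 at the same dose after 6 h. Reads were merged by the authors before peaks were called, so each peak has 1 pooled value, no strand and no replicate error, and nothing below compares DMSO with THZ531. The depth of the single libraries is unknown. Peaks are not replicates either. Intervals given for shares and their differences therefore cover counting error only, and no p-value is given. All 10 neuroblastoma marker genes looked for had a peak at an annotated end, with 19 to 76 reads at the tallest summit. Of 6 markers of other cell types, COL1A2, PTPRC, PECAM1 and ALB had none and the tallest of the rest had 15 reads.

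The 3′ end of most messenger RNAs is made by cutting the nascent transcript and adding a poly(A) tail. The complex CPSF reads the hexamer AATAAA or a close variant a short way upstream of the cut, CstF reads U-rich or GU-rich sequence downstream of it, and CFIm reads TGTA (UGUA in RNA) elements further upstream. Polymerase runs on past the cut, and the downstream RNA is normally degraded. The 12 hexamers searched were AATAAA and 11 that differ from it by 1 base. The change is at the first base in CATAAA or GATAAA or TATAAA, at the second in ACTAAA or AGTAAA or ATTAAA, at the third in AAGAAA, at the fourth in AATGAA and at the fifth in AATACA or AATAGA or AATATA. Oligo(dT) primers can also anneal to A-rich stretches inside a transcript, which yields reads with no tail.

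The sequences below are from tall peaks with the edge at the annotated end. They are the 30 bases that end at the 3′ edge, on the gene strand of GRCh38, for the 10 genes with most reads whose every transcript-end peak lacked a hexamer, with the edge within 25 bp of the canonical end and no stretch with at least 18 A in 25 bases within 50 bp after it. HAND2, with 20 A in 25, falls out by this looser limit and would not by one of 22. Capitals mark runs of at least 4 A.
ACTR1B: acaaggcccagtgtgtggctctgttttctt
METTL1: cctgcgtaagacttgacctggggaatctgt
RAB11B: ataatctgacttcctgtacagaaacctgcc
CENPM: AAAAAgtttAAAAAtcactggtctcattca
SULF2: ttttgtAAAAggccatttcttgggagtttt
FUOM: tcaagagtccaattccagctctgttctcac
MAGI3: ttattttttatatagatatttAAAAAAAAc
STK36: ttggaggtgctggtatcgtgttcacacaag
SLC25A39: ttgttaattccttaagtctaaagatgatga
TMX4: tttgttAAAAAAAAttttccttcgtgtcca

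They lie at chr2:97655944-97655973 (ACTR1B, minus strand), chr12:57768480-57768509 (METTL1, minus), chr19:8404411-8404440 (RAB11B, plus), chr22:41938724-41938753 (CENPM, minus), chr20:47657401-47657430 (SULF2, minus), chr10:133355140-133355169 (FUOM, minus), chr1:113685893-113685922 (MAGI3, plus), chr2:218702687-218702716 (STK36, plus), chr17:44319633-44319662 (SLC25A39, minus) and chr20:7977353-7977382 (TMX4, minus). In ACTR1B, METTL1, MAGI3, SLC25A39 and TMX4 they stop 1 to 9 bp short of the annotated end, inside the 3′ UTR, and in the others they run up to 18 bp past it. CENPM, SULF2, MAGI3 and TMX4 held runs of A, whereas METTL1, FUOM and STK36 were mixed in all 4 bases. Outside the 100 bp window, the peaks of ACTR1B, SULF2, STK36 and TMX4 held at least 1 of the 12 hexamers, and the rest held none.

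By contrast, the tallest such peaks outside the mitochondrial genome carried a hexamer before the annotated end itself. The 30 bases that end at the canonical end are shown for the 5 tallest of these, with capitals for any of the 12 hexamers.
ACTG1: aaggaaaAATAAAagtgctgccgtaaccaa
EGR1: cttccaaaaaATTAAAacgaaAATAAAgta
RPL41: aacagcccgggttacgtggtgtggtttgca
FASN: ctcccacaATTAAAccgcatgtgatctcca
EIF4A1: aattctgAATAAAatgacttggaaactgcc

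These are chr17:81509971-81510000 (ACTG1, minus), chr5:138469274-138469303 (EGR1, plus), chr12:56117938-56117967 (RPL41, plus), chr17:82078338-82078367 (FASN, minus) and chr17:7578977-7579006 (EIF4A1, plus). In RPL41 the hexamer nearest the end, TATAAA, started 39 bases back and so falls outside the printed bases. In ACTG1 and EIF4A1 AATAAA started 23 bases back.

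The first question was where these peaks stood relative to the annotated end. The 3′ edge was within 25 bp of the canonical end in 125 of 857 peaks without a hexamer (14.6%, 12.4 to 17.1) and in 6165 of 7611 with one (81.0%, 80.1 to 81.9), a difference of -66.4 percentage points (Newcombe interval -68.8 to -63.7). The rule sets part of this difference, because its window is anchored at the same edge. Of the 7611, 98.6% had a hexamer in the 100 bp that end at the canonical end. An edge close to such an end keeps that hexamer in its window and cannot count as lacking one. The median 3′ edge was 212 bp past the end (quartiles 97 and 461) without a hexamer and 2 bp past it (quartiles -2 and 10) with one. Counting the ends of all annotated transcripts, 141 edges without a hexamer (16.5%) were within 25 bp of one, against 82.6% with a hexamer. The edge itself lay past the canonical transcript in 767 of the 857 peaks, in a 3′ UTR exon in 85, in a coding exon in 4 and in an intron in 1.

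The peaks fell into groups by position. The edge was at the end, within 25 bp, in 125 peaks. The peak spanned the end and reached more than 25 bp past it in 361 peaks (42.1%), against 884 (11.6%) of those with a hexamer. The peak lay wholly past the end in 346 (40.4%), against 409 (5.37%). The edge stopped before the end in 25 (2.92%), against 153 (2.01%). Read the other way, a hexamer was missing at 1.99% of the 6290 peaks with the edge at the end, at 29.0% of the 1245 that spanned it and at 45.8% of the 755 past it.

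**Figure D1:**
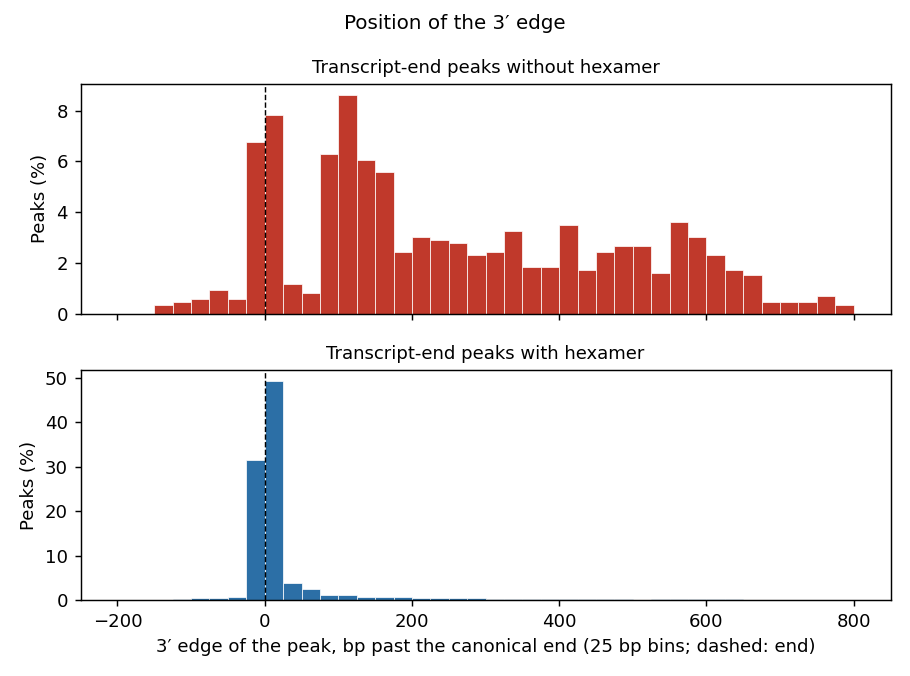
Position of the 3′ edge relative to the canonical transcript end, in 25 bp bins, as a percentage of the 857 peaks without a hexamer (upper panel) and of the 7611 with one (lower panel). Edges with a hexamer pile up at the end, while those without one show a small group at the end, a dip, a second rise from about 75 to 175 bp and a long spread beyond. The rule shapes the dip and the rise, because its window is anchored at the edge.

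Among peaks without a hexamer the edges were scarce just past the end and frequent further on. From 26 to 75 bp past it lay 17 of the 857 (1.98%), against 6.15% of those with a hexamer, and from 76 to 150 bp lay 180 (21.0%), against 3.02%. An edge 26 to 75 bp past the end leaves a hexamer that lies just before the end inside the 100 bp window. The rule itself therefore makes such edges scarce. Edges from 76 bp on move the window off the annotated signal. In 636 of the 857 peaks the whole window lay past the canonical end. A hexamer in the 100 bp that end at the canonical end itself was present for 679 (79.2%, 76.4 to 81.8), against 98.6% in the comparison set. That share was 93.6% for peaks spanning the end, against 96.0% in the comparison set (a difference of -2.41 points, -5.61 to 0.158). Past the end it was 91.0% against 89.5% (1.55 points, -2.80 to 5.78), so at these positions the 2 sets were close. For peaks at the end it was 6.40% (8 of 125), where both windows nearly coincide, so that the rule itself keeps the share low. At the limit of the window, 41 peaks had their nearest hexamer starting 101 to 110 bp before the edge, with a median of 25 reads, and 59 peaks that the rule counts as having one had it starting at 91 to 100 bp, with a median of 28 reads.

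A hexamer was present somewhere inside the peak in 435 of the 857 (50.8%, 47.4 to 54.1). Of the peaks spanning the end, 343 of 361 (95%) held one, compared with 67 of 346 past the end (19.4%) and 18 of 125 at the end (14.4%). These shares follow the width of the peaks, since a narrow peak is almost the stretch that the rule requires to lack a hexamer: of the 264 narrower than 120 bp, 3 held one. Neither the peak nor the 100 bp before the canonical end held any in 146 peaks (17.0%, 14.7 to 19.7), and 101 of these had the edge at the end.

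Median heights were close and widths were not. Reads at the summit, the number of reads extended to 100 bp that overlap it, had a median of 21 without a hexamer (quartiles 13 and 34, range 3 to 197) and 20 with one (quartiles 13 and 29, range 3 to 91). The most that the list holds is 200, so this height may count distinct start positions and not every read. Reads of 1 strand could then reach at most 100. The tallest peaks outside the mitochondrial genome had 97 reads without a hexamer and 91 with one. Near such a limit, differences in height would be compressed. Ranks by height may then differ from ranks by abundance. The fold enrichment over local background was lower without a hexamer, with a median of 6.22 against 8.81, and the median background was 2.07 reads against 1.12. Peaks without a hexamer were wider, with a median of 208 bp against 119 bp, and 51.9% against 22.4% were at least 200 bp wide (a difference of 29.5 points, 26.1 to 33.0).

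Within a position the heights were close. Peaks with the edge at the end had a median of 21 reads without a hexamer (quartiles 12 and 31) and 19 with one (13 and 27), a median fold of 8.50 and 8.97, and a median width of 114 and 115 bp. Their summits lay a median of 62 and 60 bp upstream of the end. Peaks spanning the end had 29 reads in both sets but were 301 against 224 bp wide, and peaks past the end had 15 reads in both. The 25 peaks with the edge before the end had a median of 14 reads, against 16.

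**Figure D2:**
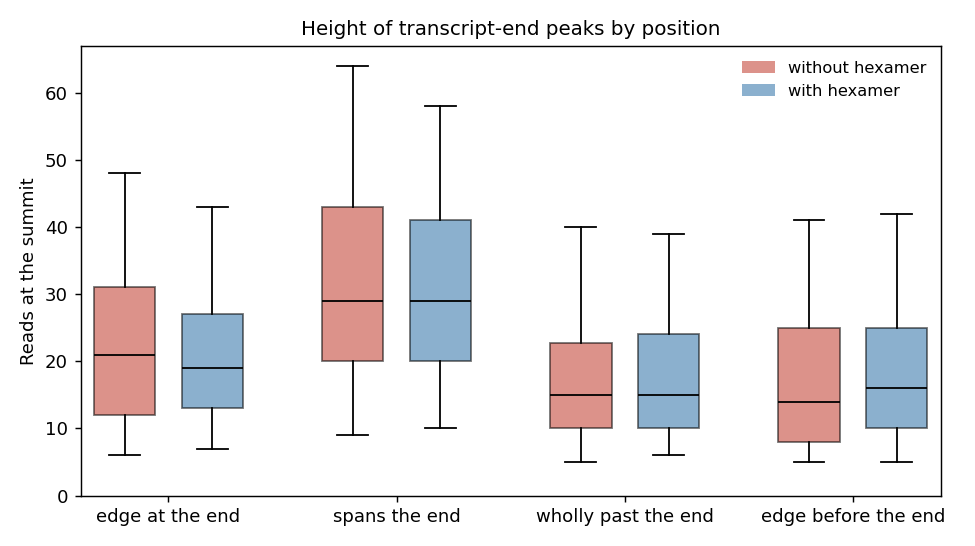
Reads at the summit for transcript-end peaks without and with a hexamer, by the position of the 3′ edge. Boxes give the quartiles with the median as a line, whiskers the 5th and 95th percentiles, and outer points are not drawn. Medians within a position differ by 2 reads or fewer.

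The share lacking a hexamer went with width. It was 6.43% (5.72 to 7.22) of peaks of 100 to 119 bp, 6.69% at 120 to 199 bp, 16.4% at 200 to 299 bp and 27.9% (24.9 to 31.1) from 300 bp up. With height it was lowest in the middle, at 12.9% for 3 to 9 reads, 8.29% for 10 to 19 and 22% (18.2 to 26.5) from 50 up. In peaks narrower than 120 bp the upper rise was not seen up to 49 reads: the share was 10.4% (8.49 to 12.6) at 3 to 9 reads, 4.69% at 20 to 29 and 5.37% at 30 to 49, and only 6 such peaks had more. Width moved with height, and the part of each was not tested.

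**Figure D3:**
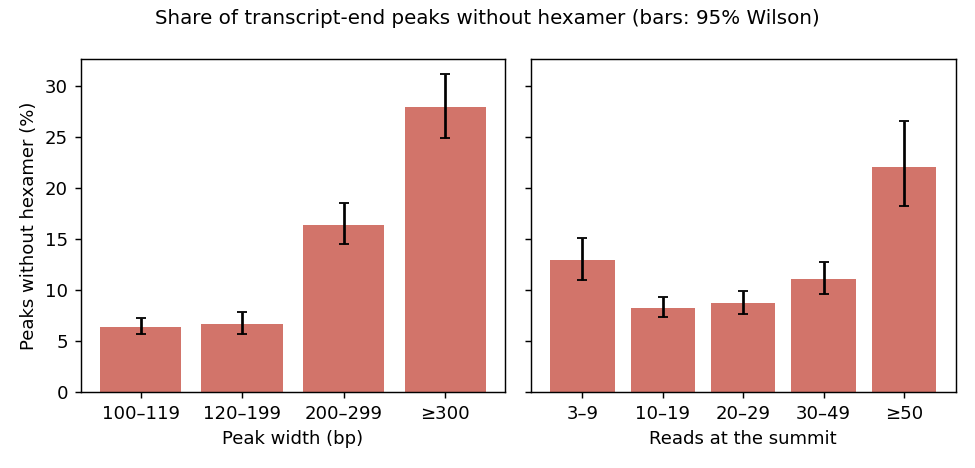
Share of the 8468 transcript-end peaks without a hexamer by peak width (left) and by reads at the summit (right), with 95% Wilson intervals as bars. The share is 27.9% in the widest peaks and 22% in the tallest.

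The tallest peaks outside the mitochondrial genome all spanned the annotated end. ACTG1, cytoplasmic gamma-actin, had 97 reads at the summit in a peak of 1743 bp, chr17:81508793-81510535, whose edge lay 1178 bp past the end. EGR1, an immediate early transcription factor, had 92 reads and an edge 264 bp past the end. RPL41, a ribosomal protein, had 90 reads and an edge 288 bp past it. FASN, fatty acid synthase, had 88 reads, EIF4A1, an RNA helicase of translation initiation, had 83, and POP7, a subunit of RNase P, had 82, as did CDKN1B, the cell cycle inhibitor p27. The next 8 were DYNLL1, ARF1, RPLP0, CDK5R1, ACY1, EEF2, RHOB and TRIM28, with 68 to 77 reads. All 15 held a hexamer in the peak and had one before the canonical end. In 13 of the 15 the summit lay before the end, and in DYNLL1 and RHOB, a small GTPase with a single-exon gene, it lay 326 and 207 bp past it. The widest peaks were those of ACTG1, RHOB (1727 bp), EIF4A1 (1413 bp), RPS14 (1200 bp) and STRADA (1170 bp).

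Peaks wholly past the end could share their gene with a peak that had a hexamer, but did so less often than peaks with a hexamer at the same position. The gene had a transcript-end peak with a hexamer besides in 173 of the 346 (50%, 44.8 to 55.2), against 261 of 409 (63.8%), a difference of -13.8 points (-20.7 to -6.73). The peak without one was the lower of the pair in 138, equal in 7 and the taller in 28. The medians were 15 reads and 24 reads. FZD2, a Wnt receptor, was among the 28, with 56 reads in the peak whose edge was 552 bp past the end and 35 in the other. Over all positions, 186 of the 857 (21.7%) had such a partner, against 518 of 7611 (6.81%). At the end it was 1.60% against 3.42%, spanning the end 2.49% against 4.30% and before it 2 of 25 against 8 of 153.

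FASN, HAND2 and PGP were the tallest of the genes with 2 peaks without a hexamer. HAND2, a transcription factor of sympathetic neurons, had 67 reads in a peak ending 3 bp before its canonical end, where the next 50 bases hold 20 A in 25, and 50 reads in one with its edge 677 bp past it. Both stood on high background, with folds of 2.85 and 2.08. PGP, a phosphoglycolate phosphatase, had 64 reads 461 bp past the end and 25 reads in a peak stopping 75 bp before it. The second peak of FASN had 44 reads, with its edge 408 bp past the end. The only mitochondrial peak, in MT-ND2, a subunit of complex I, was the tallest of all with 197 reads near the most that the list holds (200), but its fold was 1.43 and its −log10 q 3.91. Its edge lay in the coding exon, 142 bp before the end.

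The second question was whether the peaks abutted genomic A-rich sequence, on which an oligo(dT) primer can anneal. A stretch of 25 bases with at least 22 A lay within 50 bp after the edge in 28 of 857 peaks without a hexamer (3.27%, 2.27 to 4.68) and in 12 of 7611 with one (0.158%, 0.0902 to 0.275), a difference of 3.11 points (2.11 to 4.53). With at least 18 A the counts were 105 (12.3%) and 51 (0.670%), a difference of 11.6 points (9.54 to 14.0). The looser stretch stood after 17 of 125 peaks at the end (13.6%) against 0.211%, after 5.82% against 1.70% of those spanning it, and after 18.2% against 4.65% of those past it.

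The same search on the opposite strand, read from the other edge, gave 5.83% and 1.31%. Among peaks past the end it gave 11.8% against 1.96%. Among peaks without a hexamer, those at gene ends abutted A-rich sequence less often than those inside introns. Of the intronic peaks 11.6% (11.3 to 11.9 of 54255) had the stricter stretch, a difference of -8.32 points (-9.35 to -6.88). The looser stretch was found at 42.5% of them. Their median height was 9 reads against 21 at gene ends, so the 2 sets were not matched for height. How much priming on such sequence adds to the peaks was not tested.

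The 5 tallest peaks with the stricter stretch were in PIGS, a GPI transamidase subunit (43 reads), METRN, meteorin (28), HAX1 (20), ESCO2, a cohesin acetyltransferase (18), and MIS12, a kinetochore protein (18). The first 30 bases after the edge are shown for PIGS, METRN and HAX1, with A in capitals.
PIGS: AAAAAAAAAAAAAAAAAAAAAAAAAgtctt
METRN: AAAAAAAAAAAAAAAAAAAAAAAAAAAAAg
HAX1: AAAAAAAAAAAAAAAAAAAAgAAAAgAAAA

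These bases are chr17:28553182-28553211 (PIGS, minus), chr16:719802-719831 (METRN, plus) and chr1:154276344-154276373 (HAX1, plus). The edges of PIGS and METRN were 175 and 146 bp past the canonical end and that of HAX1 468 bp past it, in each case where the A run begins. ESCO2 was the only 1 of the 5 with the edge at the end.

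The third question was what the 125 peaks at the end had in place of a hexamer. Base content upstream is partly set by the rule, which forbids A-rich hexamers, so it is given as a description: from 45 to 10 bases before the edge, counting the edge base as the first, A made up 30.9% and T 32.7% of bases, against 38.2% and 33.3% in the 6165 with a hexamer. From 100 to 46 bases before the edge A made up 22.2% and 27.3%, so A was the more frequent nearer the edge in both sets. From 1 to 40 bases after the edge, which the rule did not use, T made up 33.7% against 38%, and A 22% against 21.5%.

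**Figure D4:**
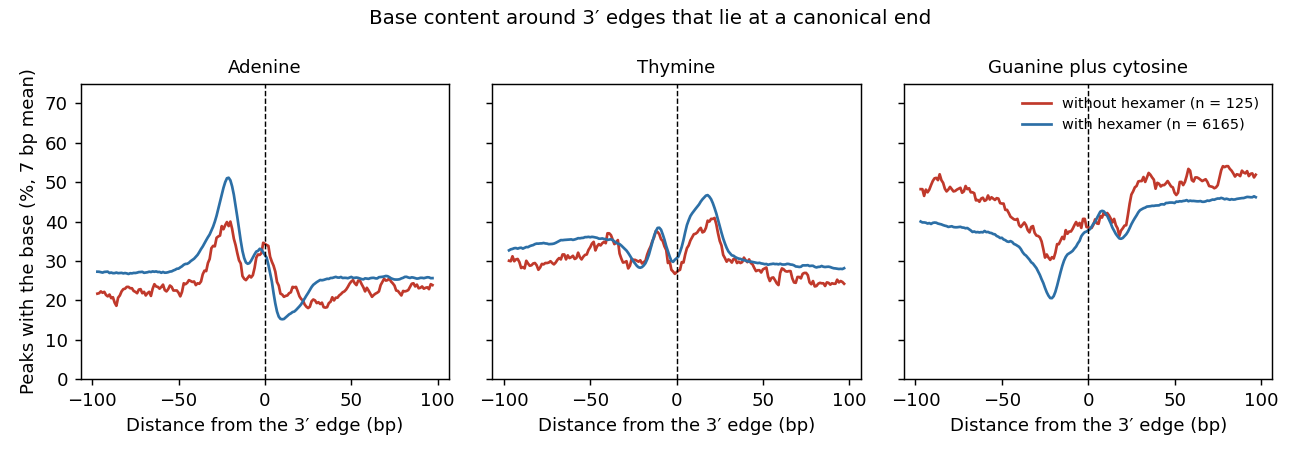
Percentage of peaks with adenine, thymine, or guanine or cytosine at each base from 100 bp before to 100 bp after the 3′ edge, as a 7 bp running mean, for peaks with the edge at the canonical end, without (n = 125) and with (n = 6165) a hexamer. Both sets show a rise in A upstream of the edge and a rise in T just downstream, and G plus C is higher without a hexamer over most of the range.

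Downstream elements as a pair were found at a share close to that of other ends. TGTGT or TTTTT occurred in the 40 bases after the edge in 47 of 125 (37.6%, 29.6 to 46.3) and in 38.1% (36.9 to 39.3) with a hexamer, while the opposite strand at its own edge gave 3.20% and 8.99%. TGTGT alone was found at 26.4% (19.5 to 34.7) against 18.5% (17.6 to 19.5), and TTTTT at 15.2% (9.95 to 22.5) against 22.9% (21.8 to 23.9). At peaks spanning the end the pair was found at 12.2% against 23.1% with a hexamer, and at peaks past it at 11.8% against 17.1%.

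TGTA occurred in the 100 bp before the edge in 71 of 125 (56.8%, 48.0 to 65.2) and in 59.7% with a hexamer, a difference of -2.92 points (-11.8 to 5.52). The opposite strand gave 23.2% and 35.7%. Among peaks spanning the end TGTA stood in 34.9%, against 51.8% with a hexamer (-16.9 points, -22.7 to -10.9). Past the end it stood in 24.9% against 38.1% (-13.3 points, -19.7 to -6.64). On the opposite strand the shares were 25.8% against 36.7% spanning the end and 22% against 33.3% past it. Of the 10 sites printed above, 7 held TGTA: in RAB11B, a GTPase of recycling endosomes, it started 33 and 16 bases before the edge, and in MAGI3, a scaffold protein, 92 and 43. CENPM, a centromere protein, FUOM, fucose mutarotase, and STK36, a kinase of the Hedgehog pathway, held none.

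The 12 leave out 7 other 1-base variants of AATAAA. At least 1 of the 7 stood 45 to 10 bases before the edge in 40 of 125 peaks at the end (32%, 24.5 to 40.6), in 12 on the opposite strand (9.60%, 5.58 to 16.0) and in 24.8% of the ends with a hexamer, where AATAAA in its surroundings can overlap them. AAAAAA occurred in 14, against 6 on the opposite strand, AACAAA in 12, against 4, and AATAAT in 7, against 3. The rest were fewer, with AATAAG in 4, AATTAA in 4, AATAAC in 3 and AATCAA in 1, and with at most 1 each on the opposite strand. ACTR1B, a dynactin subunit, held AATAAT 41 bases before the edge, and CENPM and TMX4, a thioredoxin-like transmembrane protein, held AAAAAA. At peaks spanning or past the end these variants were no more frequent than on the opposite strand, at 11.4% against 13.0% and 6.36% against 8.67%. A match is a description of letters and not evidence of use.

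The peaks of the 10 printed sites had 44 to 64 reads at the summit. ACTR1B had 64, METTL1, a tRNA methyltransferase, had 63, RAB11B 55, CENPM 53 and SULF2, a heparan sulfatase, 51. FUOM and MAGI3 had 48 each, STK36 47, SLC25A39, a mitochondrial glutathione carrier, 46 and TMX4 44. In METTL1 and RAB11B the summit lay 187 and 194 bp before the canonical end. The printed edge lay 9 bp before that end in METTL1 and 6 bp past it in RAB11B. Reads were extended to 100 bp, so the 63 and 55 reads at these summits cannot reach the printed edges. How many reads ended at those edges is unknown. Folds at the summits were from 6.66 in SLC25A39 to 26.7 in STK36. In all, 106 of the 813 genes met the same conditions.

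The last question was which genes carried such ends. Among the 7980 genes with a transcript-end peak, 813 (10.2%) had at least 1 without a hexamer, 629 (7.88%) had no other kind and 125 (1.57%) had 1 with its edge at the end. Genes of cytosolic ribosomal proteins were above the first of these shares, with 16 of 54 (29.6%, 19.1 to 42.8), and none of the 16 had the edge at the end. RPL41 and RPLP0 (74 reads), RPS14 (54) and RPL4 (52) were the tallest, all spanning the end with a hexamer in the peak. Single-exon genes had 38 of 178 (21.3%, 16.0 to 27.9), among them RHOB, FZD2 and TBCC, a tubulin folding cofactor (55 reads). Across the shortest quartile of genes with a transcript-end peak the share was 20.7% (19.0 to 22.5). The gene lists were not matched for length.

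For oxidative phosphorylation, the proteasome and zinc finger genes the interval held the background. Nuclear genes of oxidative phosphorylation had 6 of 60 (10%, 4.66 to 20.1), 2 of them with the edge at the end, such as ATP5F1A, a subunit of ATP synthase, with 15 reads. The tallest were CYC1 (33 reads) and UQCRQ (29), both of complex III, and NDUFB11 of complex I had 22. The proteasome had 4 of 28 (14.3%, 5.70 to 31.5), PSMB5, a catalytic subunit, with 43 reads and its edge 1 bp before the end, PSMD4 with 41, PSMB6 with 33 and PSMF1 with 9. ZNF zinc finger genes had 32 of 277 (11.6%, 8.30 to 15.9), the tallest being ZNF703, ZNF48, ZNF629 and ZNF669 with 44 to 58 reads. Of 9 neuroblastoma regulators and catecholamine genes 3 had one (33.3%, 12.1 to 64.6). The lower limit was little above the background of 10.2%, and the list is small and was chosen with earlier results known. Among the 3 were HAND2, the only 1 with an edge at the end, and ISL1, a LIM homeobox transcription factor (55 reads). The ISL1 peak spanned the end and held a hexamer. Of 13 genes of mitochondrially encoded proteins, 1 had a transcript-end peak, with or without a hexamer.

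None was found in 12 genes of cleavage and polyadenylation factors (upper Wilson limit 24.2%) or in 13 of homologous recombination and the Fanconi pathway (upper limit 22.8%). Both limits lie above the background. JUNB and MC4R, whose ends are known for A-rich sequence in place of AATAAA, had no transcript-end peak as defined here. Each had 1 peak when the ends of all annotated transcripts were counted, with 78 and 13 reads. PAPOLA and PAPOLG, the poly(A) polymerases, had 1 transcript-end peak each, with a hexamer.

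Gene length went with the position of the peak. Genes with a peak without a hexamer had a median length of 14276 bp and those with none 40606 bp, with medians of 7 and 9 exons. In the shortest quartile of genes (up to 14.6 kb) 413 of 1995 (20.7%, 19.0 to 22.5) had one, and in the longest (from 89.8 kb) 101 (5.06%, 4.18 to 6.11). Peaks spanning the end without a hexamer went from 9.97% to 1.80% of genes between these quartiles and those past the end from 9.12% to 2.16%, while those at the end went from 2.36% (1.78 to 3.12) to 0.952% (0.611 to 1.48). With a hexamer the same positions went from 14.7% to 8.97% and from 8.17% to 3.51%. By chromosome the share of peaks was highest, among those with over 100 peaks, on 19 (115 of 621, 18.5%) and 17 (73 of 465, 15.7%) and lowest on 13 (5 of 157, 3.18%). Reads that map to several places were kept by the authors, and 6 of the peaks are on the Y chromosome, some in sequence shared with X.

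**Figure D5:**
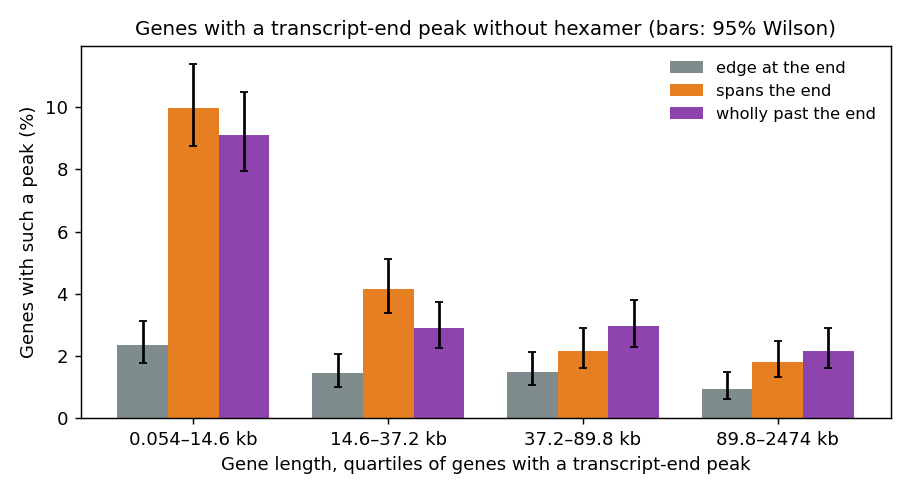
Share of genes with a transcript-end peak without a hexamer whose edge is at the canonical end, which spans it or which lies wholly past it, by quartile of gene length (1995 genes each), with 95% Wilson intervals as bars. Bars for peaks spanning and past the end are tallest, at 9.97% and 9.12%, in the shortest genes.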

How the data were processed

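QuantSeq 3′ REV libraries of IMR-32 cells were trimmed with BBMap and mapped by the authors to GRCh38 with STAR 2.5.1b, keeping reads with up to 20 placements. Reads were pooled, here assumed over the 6 libraries listed, and peaks were called with MACS2 2.1.1 without a control, extending reads to 100 bp (versions from the submitters' processing notes). The deposited fold enrichment is the ratio of pileup plus 1 to local background plus 1, beside the authors' −log10 p-value and −log10 q-value and the summit offset. No duplicate setting is named, and the highest value of 200 reads means that heights may count distinct start positions. Reads at the summit were solved from the deposited fold and −log10 p-value (largest misfit 0.000172, and 100% of 19765 simulated peaks recovered). Annotation was Gencode 44, the study's was Gencode 27. The list precedes the study's own removal of sites without a hexamer beside an A stretch. Peaks on contigs other than the chromosomes and the mitochondrial genome held no canonical end.

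Shares carry Wilson and differences Newcombe intervals at 95%, computed with Python 3.11.15, scipy 1.17.1 and pandas 2.3.3. Motifs were searched on both strands. The members, gene lists and markers were chosen with earlier results of these data known. Named genes were the 15 tallest nuclear peaks, the mitochondrial one, the 5 tallest with an A stretch, the 5 widest and 3 genes with most such peaks. Also named were the 10 tallest genes with no hexamer in the 100 bp window at the end and no A stretch. The others were JUNB, MC4R, PAPOLG and PAPOLA, and up to 4 of each list. A gene that this rule selects is not reported here.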

Additional observations from a re-analysis of the deposited data

Results flagged for a closer look

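Peaks outside the comparisons also held signal. On contigs other than the chromosomes and the mitochondrial genome there were 413 peaks, with a median of 10 reads at the summit. Where genes of both strands lay at a canonical end, 289 of 3017 peaks (9.58%, 8.58 to 10.7) had a hexamer on neither strand, and these 3017 had a median of 23 reads.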

How the results depend on the processing

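Values are given in the order number of peaks without a hexamer, their share, their median reads, the share of their edges at an end, their share with an A stretch, then the median reads, edge share and A stretch share with a hexamer, and genes with no other kind, for those that moved. With −log10 q of at least 5 the share was 9.02% and the medians 25 and 21 reads. With at least 20 there were 207 (7.85%), 42 reads, 17.9% and 0.483%, against 32 reads, 78.1% and 0.0823%, and 204 genes. Ends of all transcripts gave 5155 (21.6%), 14 reads, 26.4% and 5.84%, against 17 reads, 58.6% and 0.525%. A window of 100 bp either side gave 456 (6.26%), 26.5 reads, 25.4% and 2.19%, against 87.0% at an end. A hexamer sought in the whole peak gave 422 (4.98%), 16 reads and 25.4%, against 76.8%, and 244 genes. Sought in the 100 bp before the summit it gave 5079 (60.0%), with 75.2% at an end and 0.571% with an A stretch, against 72.9% and 0.325%, and 4668 genes; only there were edges without a hexamer at an end as often as the others. Sought in 50 bp it gave 1338 (15.8%), 24 reads, against 85.5%, and 1045 genes. The tallest peak per gene gave 8.35%, 24 reads and 18.5%, against 83.4%. AATAAA and ATTAAA alone gave 1828 (21.6%). Peaks narrower than 120 bp, a setting chosen after seeing the data, gave 264 (6.43%), 13 reads, 26.9% and 6.44%, against 15 reads and 91.3%, and 208 genes. At least 18 A gave 12.3% and 0.670%. The A stretch was more frequent without a hexamer in every setting that gave its share, though the intervals overlapped with −log10 q of at least 20 and with the window at the summit. The other 35 values were within 1.5 times the main count or inside the main interval, and the cause of the shifts was not tested. No paired analysis was possible because 1 peak list pools every library, and for the same reason no replicate could be left out. Pooling also leaves each library's depth unknown.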
